A study of Mus musculus with 32 samples.

Results

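The 10 genes described here encode transcriptional regulators of vascular smooth muscle cells (SMCs), namely *Myocd*, *Srf*, *Mef2a*, *Mef2c*, *Mef2d*, *Tbx2*, *Tbx18*, *Foxf2*, *Klf4*, and *Gata6*. They were taken by symbol from a table of read counts of 55357 genes, and all 10 had a row. Brain arteries of 32 mice, 8 per group, were dissected by hand under a stereomicroscope, and poly(A) RNA of each was sequenced. At 3 months of age, *Notch3*-/- mice, in which the Notch3 receptor gene is inactivated in all cells, were compared with *Notch3*+/+ mice. At 12 months of age, Tg*Notch3*R169C mice were compared with nontransgenic mice, called WT here. Tg*Notch3*R169C mice model CADASIL, an inherited disease of small brain arteries. They carry rat *Notch3* with a cysteine-altering mutation on an artificial chromosome, integrated on the X chromosome, in addition to their normal murine *Notch3*. All mice were untreated and of lines backcrossed onto C57BL/6, both sexes were used in the study, and the controls were littermates of the same age. The comparisons address whether the arterial disease goes with too little or too much NOTCH3 activity.

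SRF binds a short A/T-rich element, the CArG box, in the regulatory regions of contractile and of immediate early genes. Myocardin, the product of *Myocd*, is a coactivator of SRF that drives the contractile genes of smooth and cardiac muscle. The MEF2 proteins bind a different A/T-rich site and are held inactive by class IIa histone deacetylases. *Tbx2* and *Tbx18* encode T-box factors, and *Tbx18* is widely used as a marker of mural cells, that is, of pericytes and SMCs. *Foxf2* encodes a forkhead factor required in brain pericytes, *Gata6* a zinc finger factor of differentiated SMCs, and *Klf4* a zinc finger factor that opposes the action of myocardin. NOTCH3 itself acts through RBPJ, the DNA-binding partner of the cleaved receptor.

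Promoter windows of 250 bases before and 50 bases after an annotated start were given for 7 of the 10 genes, and not for *Myocd*, *Tbx2*, and *Gata6*. Among these 7 genes, a CArG box, searched by its consensus on both strands, was found in the window of *Srf* alone, against 1.63% of all 32851 mouse windows. The *Srf* window held 2 boxes, 82 and 62 bases before the start. A MEF2 site was found in the window of *Mef2a* alone, against 3.19% of all windows. The core of the RBPJ site, TGGGAA on either strand, was found in that of *Tbx18* alone, against 25.6% of all windows. Of 20 contractile genes with a known CArG box, 17 had a window, and 2 of these, *Myl9* and *Vcl*, held a box within it. Only exact matches to the consensus were counted. A known box that departs from it in a base, or lies outside the window, was therefore not found. A match is a description of these letters only. The stretches around the boxes of *Srf*, *Myl9*, and *Vcl* and around the MEF2 site of *Mef2a* are shown as examples of such matches. Windows of other listed genes held matches too, among them *Fhl1*, *Fhl2*, *Hopx*, and *Egr2* for the CArG box and *Synpo2* for the MEF2 site. Sequences are from RefSeq (build GRCm38.p6), written 5′ to 3′ on the strand of the gene, with the element in capitals. The *Srf* stretch is chr17:46556200-46556269 (minus strand), that of *Myl9* is chr2:156775283-156775332 (plus strand), that of *Vcl* is chr14:20929156-20929205 (plus strand), and that of *Mef2a* is chr7:67372851-67372875 (minus strand).
Srf: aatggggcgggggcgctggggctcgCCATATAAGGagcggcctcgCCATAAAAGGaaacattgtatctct
Myl9: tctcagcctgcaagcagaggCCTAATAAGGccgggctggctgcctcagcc
Vcl: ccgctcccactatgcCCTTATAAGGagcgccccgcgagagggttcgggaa
Mef2a: gccgaggcctgactcCTAAAAATAG

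Libraries held 20289487 to 54481934 counts. *Notch3* was at 83.6 ± 12.0 CPM (read counts scaled to the size of the library, mean ± SD) in *Notch3*+/+, 16.2 ± 1.82 in *Notch3*-/-, 73.2 ± 8.19 in WT, and 182 ± 34.5 in Tg*Notch3*R169C mice. It passed the test in both mutants, with log2 fold changes of −2.37 and 1.31. The transgene is rat *Notch3* and the counts are per mouse gene. How many rat reads were counted is not known, so the value in Tg*Notch3*R169C mice is not a measure of murine or of total *Notch3*. Markers of SMCs were abundant in every library, and their summed level had a median of 3066 CPM in *Notch3*+/+, 1889 in *Notch3*-/-, 1730 in WT, and 1552 in Tg*Notch3*R169C mice. The summed level of 7 markers of choroid plexus epithelium, a secretory tissue of the brain ventricles, was 8863 to 25565 CPM in 7 libraries and 231 to 658 CPM in the other 25. These 7 were *Notch3*-/- replicate 8, Tg*Notch3*R169C replicates 5 and 8, and WT replicates 2, 4, 5, and 6. In *Notch3*-/- against *Notch3*+/+ mice, the median log2 fold change was −0.63 for SMC, 0.04 for pericyte, 0.05 for endothelial, −0.06 for fibroblast, −0.02 for neuron, 0.03 for astrocyte, 0.46 for oligodendrocyte, 0.003 for microglia and macrophage, 2.78 for choroid plexus, and 0.41 for red blood cell markers. In Tg*Notch3*R169C against WT mice it was −0.23, −0.05, 0.08, 0.01, 0.53, 0.17, −0.07, 0.01, −1.05, and 0.03 for the same lists in the same order. In the older against the younger controls (WT against *Notch3*+/+) it was −0.81, 0.18, −0.20, −0.09, 0.17, 0.16, 0.70, −0.006, 3.94, and −0.14.

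Every one of the 10 regulators was expressed in every library, from 74 counts of *Myocd* to 10645 counts of *Mef2a*. By CPM alone, *Mef2a* was the highest of the 10 in *Notch3*+/+ mice, at 202 CPM against 122 CPM for *Klf4*. The order changes with the length used, here that of all annotated exons of a gene together. Per kilobase of exon, *Klf4* was the most abundant in *Notch3*+/+ mice, at 40.1 ± 9.14 CPM per kilobase. It was followed by *Tbx18* at 30.3 ± 3.15, *Mef2d* at 24.8 (23.7 to 26.3), *Foxf2* at 19.1 ± 1.98, *Srf* at 16.8 ± 2.14, and *Mef2a* at 13.7 ± 0.742 CPM per kilobase. *Tbx2* (5.27 ± 1.16) and *Mef2c* (4.40 ± 1.96) formed a lower tier, and *Gata6* (1.47 ± 0.137) and *Myocd* (1.44 ± 0.465 CPM per kilobase) the lowest. Between neighbors in this order, the ranges over 8 libraries overlapped for *Klf4* and *Tbx18*, for *Foxf2* and *Srf*, for *Srf* and *Mef2a*, for *Tbx2* and *Mef2c*, and for *Gata6* and *Myocd*. The coactivator *Myocd* was thus the least abundant of the 10 per kilobase and stayed in that position in all 4 groups. At 12 months, *Mef2d* (24.6 ± 1.78) stood above *Tbx18* (22.8 ± 3.13 CPM per kilobase) in WT mice, with overlapping ranges. In *Notch3*-/- mice, *Tbx2* (mean 3.14, at most 4.05) stood below *Mef2c* (mean 3.73, at most 4.53 CPM per kilobase), again with overlapping ranges.

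**Figure D1:**
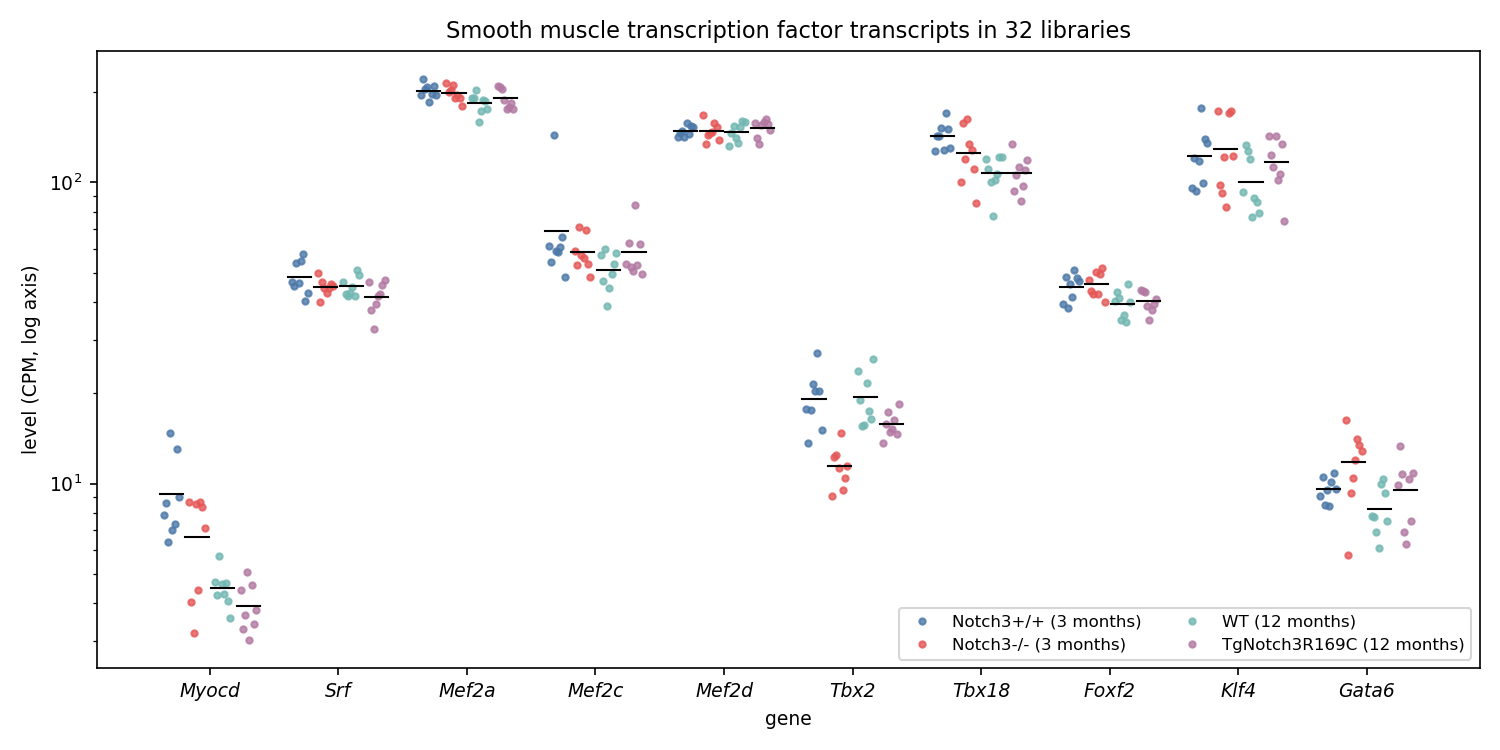
Level in CPM (log axis) of each of the 10 genes in each library, with 8 libraries per group as points and the group mean as a line. *Tbx2* is lower in *Notch3*-/- mice (11.4 CPM on average) than in *Notch3*+/+ mice (19.1 CPM), and *Myocd* and *Tbx18* are lower in WT mice aged 12 months than in every *Notch3*+/+ library aged 3 months.

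*Tbx2* was the only 1 of the 10 regulators that passed the test in *Notch3*-/- mice, and it was lower. Calls were made at an adjusted p below 0.05 (edgeR quasi-likelihood test, Benjamini-Hochberg over all genes tested), which 0.649% of all 17714 genes met in this comparison. *Tbx2* (ENSMUSG00000000093, chromosome 11) encodes a T-box repressor. Its level had a lowest, median, and highest value of 13.6, 19.0, and 27.1 CPM in *Notch3*+/+ mice and of 9.08, 11.4, and 14.7 CPM in *Notch3*-/- mice. All 8 *Notch3*-/- libraries lay below the mean of the controls and 7 of 8 below the lowest control, so that the groups overlapped in 1 library of each. The log2 fold change was −0.74 (SE 0.128, 95% CI −1.01 to −0.47, adjusted p = 0.00813), a fold of 0.597. The call held without any 1 of the 16 libraries (−0.80 to −0.65). With the mean of the 8 SMC markers, 6 of which were themselves lower, as a covariate, the value was −0.51 (SE 0.212, adjusted p = 0.711). In these bulk samples, fewer SMCs and less RNA per SMC cannot be told apart.

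The other T-box gene, *Tbx18* (ENSMUSG00000032419, chromosome 9), did not pass the test in *Notch3*-/- mice. Its levels ran from 127 to 171 CPM in *Notch3*+/+ mice and from 85.7 to 163 CPM in *Notch3*-/- mice, 4 of which lay below the lowest control. The lowest of them, replicate 8, was the library of this group that was rich in choroid plexus transcripts. The log2 fold change was −0.19 (95% CI −0.43 to 0.05), and −0.12 without that library.

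*Myocd* (ENSMUSG00000020542, chromosome 11) missed the test in *Notch3*-/- mice with a wide interval. Its lowest, median, and highest levels were 6.40, 8.25, and 14.7 CPM in *Notch3*+/+ mice and 3.19, 7.73, and 8.69 CPM in *Notch3*-/- mice. The 8 *Notch3*-/- libraries fell in a lower set of 3 (3.19, 4.04, and 4.42 CPM) and a higher set of 5 (7.12 to 8.69 CPM), and each lay below the mean of the controls. The log2 fold change was −0.48 (SE 0.235, 95% CI −0.97 to 0.02, adjusted p = 0.683). With the SMC marker covariate it was 0.12 (SE 0.322). Its partner *Srf* (ENSMUSG00000015605, chromosome 17) had a mean of 48.5 ± 6.20 CPM in the controls and of 45.0 ± 2.94 CPM in the mutant, with a narrow interval around a log2 fold change of −0.11 (95% CI −0.25 to 0.04).

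The 3 *Mef2* genes did not pass the test in *Notch3*-/- mice. *Mef2a* (ENSMUSG00000030557, chromosome 7) and *Mef2d* (ENSMUSG00000001419, chromosome 3) had the narrowest intervals of the 10 genes, with log2 fold changes of −0.02 (95% CI −0.11 to 0.06) and 0.002 (95% CI −0.09 to 0.10). *Mef2c* (ENSMUSG00000005583, chromosome 13) was at 48.6 to 144.2 CPM in *Notch3*+/+ mice, where replicate 3 stood apart and the next library was at 66.0 CPM. Its log2 fold change of −0.24 (95% CI −0.63 to 0.16) became 0.008 without that library.

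*Gata6* (ENSMUSG00000005836, chromosome 18) had the highest log2 fold change among the regulators in *Notch3*-/- mice, and it did not pass the test. Its level was 8.42 to 10.8 CPM in *Notch3*+/+ mice and 5.81 to 16.3 CPM in *Notch3*-/- mice, 5 of which lay above the highest control and 1 below the lowest. Its log2 fold change was 0.30 (95% CI −0.02 to 0.62, adjusted p = 0.706). *Klf4* (ENSMUSG00000003032, chromosome 4) varied among mice more than it did between the groups, from 93.8 to 177 CPM in *Notch3*+/+ and from 82.9 to 173 CPM in *Notch3*-/- mice (log2 fold change 0.08, 95% CI −0.29 to 0.45). *Foxf2* (ENSMUSG00000038402, chromosome 13) was at 45.1 ± 4.68 and 46.1 ± 4.41 CPM in these groups (log2 fold change 0.03, 95% CI −0.11 to 0.18). Of the 10 genes, 6 had a lower and 4 a higher mean in *Notch3*-/- mice, with a median log2 fold change of −0.07 against −0.001 for all genes. At an unadjusted p below 0.05, 1 of 10 was found, against 7.69% of all genes, and none of the 10 had groups that did not overlap, against 0.322% of all genes.

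**Figure D2:**
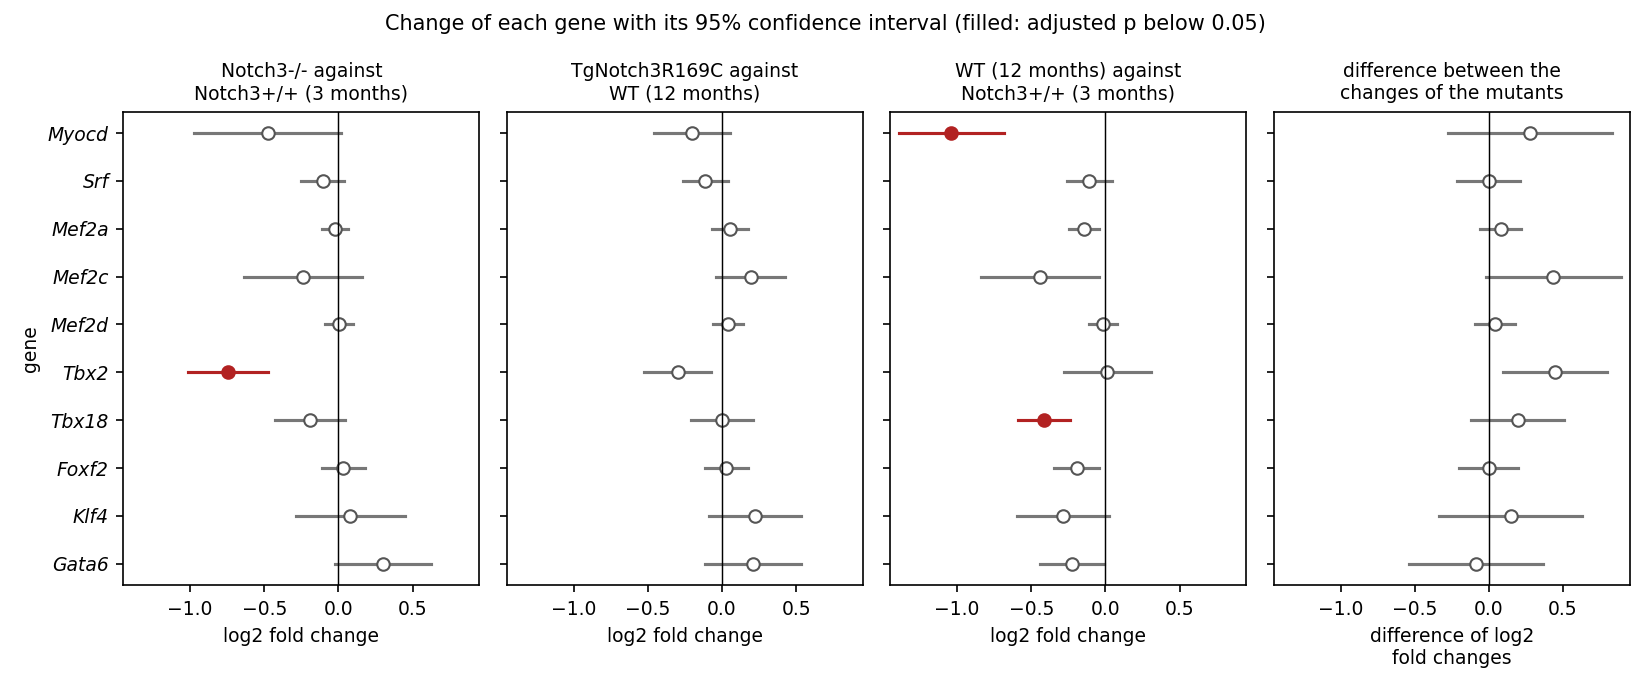
Log2 fold change of each gene (x axis) with its 95% confidence interval in the 3 comparisons of groups, and the difference between the changes of both mutants in the last panel; filled symbols passed the test. *Tbx2* is the filled symbol in *Notch3*-/- mice (−0.74), no symbol is filled in Tg*Notch3*R169C mice, and *Myocd* (−1.04) and *Tbx18* (−0.42) are filled in the comparison of the controls.

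In Tg*Notch3*R169C mice, none of the 10 regulators passed the test, which 0.113% of all 17731 genes met. DESeq2 and limma voom likewise called 0 of the 10, and at an unadjusted p below 0.05 *Tbx2* was found, as 1 of 10 against 7.27% of all genes. *Tbx2* was at 15.6, 18.2, and 25.8 CPM (lowest, median, and highest) in WT mice and at 13.7, 15.5, and 18.4 CPM in Tg*Notch3*R169C mice. All 8 transgenic libraries lay below the mean of the WT libraries, and 4 lay below the lowest of them. The log2 fold change was −0.30 (SE 0.107, 95% CI −0.53 to −0.07, unadjusted p = 0.0130, adjusted p = 0.611).

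*Myocd* was at 3.57 to 5.75 CPM in WT and 3.03 to 5.07 CPM in Tg*Notch3*R169C mice, 3 of which lay below the lowest WT library, for a log2 fold change of −0.20 (95% CI −0.46 to 0.06). *Srf* was at 41.8 to 51.1 and 32.5 to 47.6 CPM, with 3 transgenic libraries below the lowest WT library (log2 fold change −0.11, 95% CI −0.27 to 0.04). *Tbx18* had a mean of 107 CPM in both groups, and the interval of its log2 fold change reached from −0.21 to 0.21. *Klf4*, which opposes myocardin, was at 76.6 to 133 CPM in WT and 74.7 to 143 CPM in Tg*Notch3*R169C mice, 7 of which lay above the WT mean (log2 fold change 0.22, 95% CI −0.09 to 0.54). Without the libraries rich in choroid plexus transcripts, the log2 fold change was 0.39 for *Klf4* (adjusted p = 0.505) and −0.21 for *Srf* (adjusted p = 0.661), and with the immediate early genes as a covariate that of *Klf4* was 0.05.

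*Gata6* ran from 6.12 to 10.3 CPM in WT mice and from 6.30 to 13.3 CPM in Tg*Notch3*R169C mice, 4 of which lay above the highest WT library (log2 fold change 0.21, 95% CI −0.11 to 0.54). *Mef2c* was at 38.9 to 60.1 and 49.5 to 84.4 CPM (log2 fold change 0.19, 95% CI −0.04 to 0.43). The highest of these libraries, Tg*Notch3*R169C replicate 5, was rich in choroid plexus transcripts, and without all libraries of that kind the value was −0.04. The same library had the highest summed level of neuron markers of its group, 1223 CPM, and with the neuron markers as a covariate the log2 fold change of *Mef2c* was 0.05. *Mef2a*, *Mef2d*, and *Foxf2* had log2 fold changes of 0.05, 0.04, and 0.03, and their intervals lay between −0.12 and 0.17. In all, 4 of the 10 genes had a lower and 6 a higher mean in Tg*Notch3*R169C mice (median log2 fold change 0.03). No gene of the 10 had groups that did not overlap, against 0.141% of all genes.

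A single fit asked whether both mutations changed a gene by unequal amounts. It used all 32 libraries, and 0.35% of 18555 genes passed. None of the 10 regulators did, also with DESeq2 and limma voom, and 1 had an unadjusted p below 0.05 against 8.62% of all genes. This gene was *Tbx2*, with a difference of 0.45 on the log2 scale (SE 0.172, 95% CI 0.10 to 0.80, unadjusted p = 0.0138, adjusted p = 0.420), the higher value being that of Tg*Notch3*R169C mice. The next by size was *Mef2c*, at 0.44 (95% CI −0.02 to 0.89), which rests in part on *Notch3*+/+ replicate 3 and was 0.19 without it. The remaining differences lay between −0.09 for *Gata6* and 0.28 for *Myocd*. Since the *Notch3*-/- comparison was made at 3 months and the Tg*Notch3*R169C comparison at 12 months in another line, age, line, and mutation cannot be told apart here.

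Between the control groups, *Myocd* and *Tbx18* were lower in WT mice aged 12 months than in *Notch3*+/+ mice aged 3 months. In this comparison 7.92% of all 17643 genes passed the test, 24.2% had an unadjusted p below 0.05, and 1.24% had groups that did not overlap. Of the 10 regulators, 2 passed, 6 had an unadjusted p below 0.05, and 2 had groups that did not overlap. Age, mouse line, and any difference in when the arteries were collected cannot be told apart here. *Myocd* was at 4.50 ± 0.636 CPM in WT mice (3.57 to 5.75) and at 9.24 ± 2.99 CPM in *Notch3*+/+ mice (6.40 to 14.7), so every library of the older controls lay below every library of the younger. The log2 fold change was −1.04 (SE 0.166, 95% CI −1.39 to −0.69, adjusted p = 0.00180), a fold of 0.487.

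*Tbx18* had no overlap either, with 77.4 to 122 CPM in WT and 127 to 171 CPM in *Notch3*+/+ mice. Its log2 fold change was −0.42 (SE 0.0837, 95% CI −0.59 to −0.24, adjusted p = 0.00744). The lowest WT library, replicate 4, had the highest summed level of choroid plexus markers, 25565 CPM. Without the libraries rich in these transcripts, *Tbx18* was at −0.31 (adjusted p = 0.0630) and with their marker level as a covariate at −0.26 (adjusted p = 0.144), and *Myocd* still passed, at −1.02 and −0.97 (adjusted p = 0.0460 and 0.0470). With the SMC markers as a covariate, *Myocd* was at −0.54 (adjusted p = 0.448) and *Tbx18* at −0.09 (adjusted p = 0.828). In that fit 0 of all 17643 genes passed.

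Apart from *Tbx2*, at 19.1 ± 4.20 CPM in the younger and 19.4 ± 3.90 CPM in the older controls (log2 fold change 0.01, 95% CI −0.28 to 0.31), all regulators had a lower mean in WT mice aged 12 months. Over 12 alternative fits the value of *Tbx2* ran from −0.006 to 0.66, and it passed in 0 of them. Log2 fold changes were −0.44 for *Mef2c* (adjusted p = 0.159), −0.29 for *Klf4* (0.253), −0.22 for *Gata6* (0.187), −0.19 for *Foxf2* (0.108), −0.14 for *Mef2a* (0.0744), −0.11 for *Srf* (0.382), and −0.02 for *Mef2d* (0.872). The median over the 10 genes was −0.21, against 0.003 over all genes. *Mef2c* without *Notch3*+/+ replicate 3 was at −0.20. With the neuron markers as a covariate it passed the test, at −0.48 (SE 0.0997, adjusted p = 0.00945). *Mef2a* passed when WT replicate 3 was left out, at −0.17 (adjusted p = 0.0360), and with DESeq2, at −0.15 (adjusted p = 0.0495).

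Some of the contractile genes that SRF and myocardin act on were lower in *Notch3*-/- mice. Of 20 contractile genes with a known CArG box, 9 passed the test, each lower, against 0.649% of all genes, and 11 did not. The mean was lower for 18 of the 20 and higher for 2, with a median log2 fold change of −0.51. Those that passed were *Myh11* (−1.04), *Cnn1* (−0.79), *Tpm2* (−0.73), *Lmod1* (−0.65), *Acta2* and *Tagln* (−0.63 each), *Myl9* (−0.61), *Mylk* (−0.56), and *Jph2* (−0.56). They encode smooth muscle myosin, calponin, tropomyosin, leiomodin, smooth muscle actin, transgelin, the myosin light chain and its kinase, and junctophilin. Of the genes whose printed windows hold a CArG box, *Myl9* passed and *Vcl*, which encodes the adhesion protein vinculin, was at −0.11 (adjusted p = 0.915). The intermediate filament gene *Des* was at 0.28 (adjusted p = 0.296). Without *Notch3*-/- replicate 8, 6 of the 20 passed and the median was −0.47. With the SMC marker covariate, 2 were called higher and 0 lower, and the median was 0.003. All 8 SMC markers are in this list, so it is not a separate observation from the marker values above. A fit with their mean as a covariate moves the median of this list toward 0 by construction.

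Of the 20 contractile genes, 0 passed in Tg*Notch3*R169C mice with edgeR, 2 with DESeq2, and 0 with limma voom, with a median log2 fold change of −0.18. At an unadjusted p below 0.05, 8 were lower and 0 higher, against 7.27% of all genes in either direction. The smallest p-values were those of *Actg2* (−0.71, adjusted p = 0.135), *Dmpk* (−0.18, adjusted p = 0.172), and *Lmod1* (−0.25, adjusted p = 0.532). In the direct test of both changes, 1 of the 20 passed. It was *Myh11*, with a difference of 0.75 (SE 0.173, adjusted p = 0.0399), the higher value being that of Tg*Notch3*R169C mice. Between the controls, all 20 had a lower mean in WT mice aged 12 months, with a median of −0.71, and 19 passed the test, among them *Actg2* (−1.21) and *Cnn1* (−1.08), against 7.92% of all genes. The gene that did not pass was *Dmpk* (−0.16, adjusted p = 0.0883). Without the libraries rich in choroid plexus transcripts, 14 of the 20 passed and the median was −0.67. With the SMC marker covariate 0 passed at a median of −0.05, in a fit that moves this list toward 0 by construction.

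**Figure D3:**
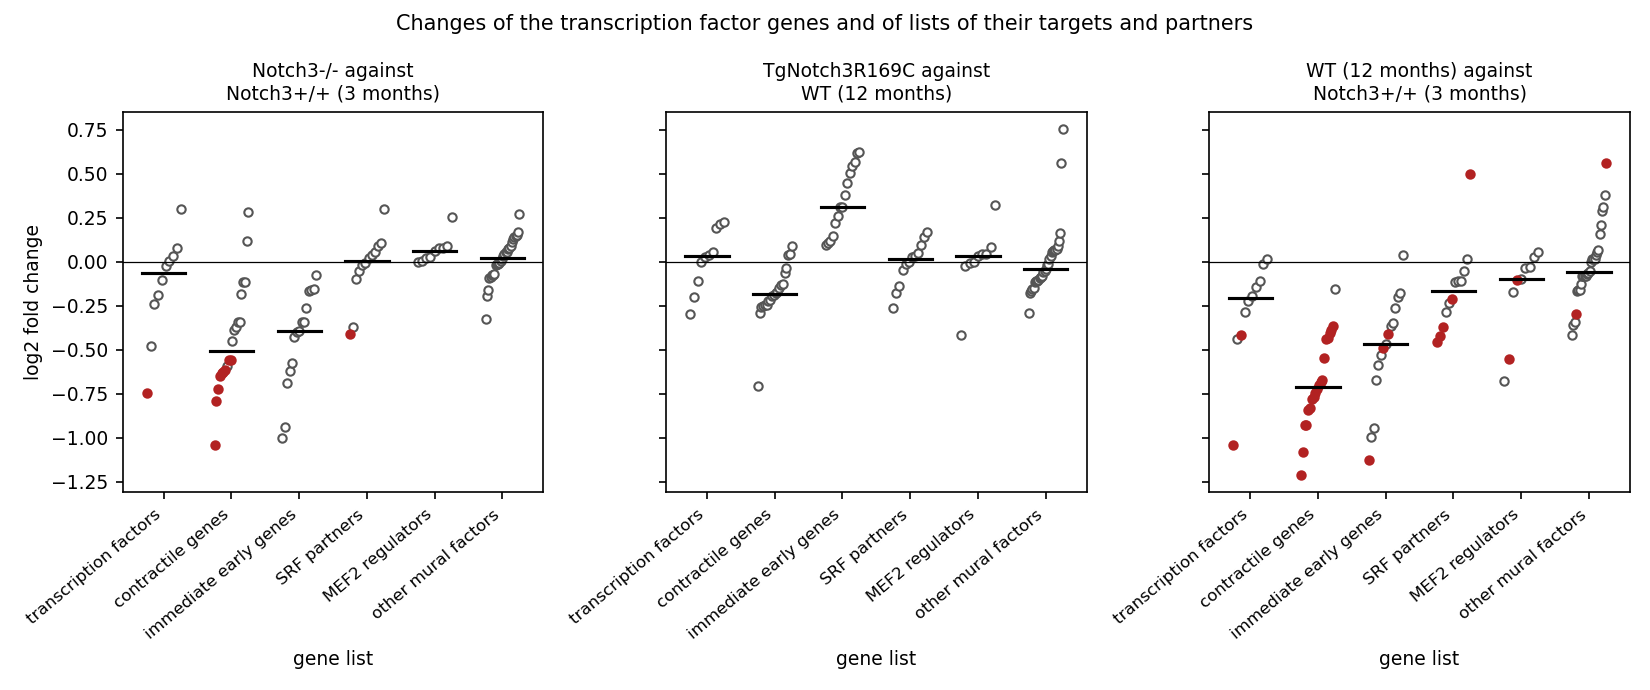
Log2 fold change (y axis) of the 10 transcription factor genes and of the genes of 5 lists in the 3 comparisons of groups, with 1 point per gene, filled where the test was passed, and a line at the median. The contractile genes lie lower in *Notch3*-/- mice (median −0.51) and in the older controls (−0.71), whereas the medians of the transcription factors are −0.07 and −0.21.

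The other set of SRF targets, the immediate early genes, which are switched on within minutes of a stimulus, did not pass the test in either mutant. Of 15 such genes, 0 passed in *Notch3*-/- mice with edgeR, DESeq2, and limma voom. At an unadjusted p below 0.05, 5 were lower, against 7.69% of all genes in either direction. All 15 had a lower mean, and the median log2 fold change was −0.39. *Ccn1*, which encodes a matricellular protein, had the smallest p (95% CI of the log2 fold change −1.65 to −0.36, adjusted p = 0.241), followed by *Btg2* (−0.26, adjusted p = 0.581) and *Fosb* (−0.69, adjusted p = 0.591). With the same tools, 0 of the 15 passed in Tg*Notch3*R169C mice. There 3 were higher at an unadjusted p below 0.05, against 7.27% of all genes in either direction. All 15 had a higher mean there, with a median of 0.31, and the smallest p-values were those of *Fosl2* (0.45, adjusted p = 0.291), *Junb* (0.50, adjusted p = 0.531), and *Egr3* (0.62, adjusted p = 0.679). The difference between the changes was positive for all 15 genes, with a median of 0.66. It passed the test for 0 of them with edgeR, and 10 had an unadjusted p below 0.05, against 8.62% of all genes. The largest was that of *Ccn1* (1.57, 95% CI 0.71 to 2.43, adjusted p = 0.118). Between the controls, *Ccn1* (−1.12), *Ccn2* (−0.49), and *Btg2* (−0.41) were lower in the older mice, and 0 of the 15 passed without the libraries rich in choroid plexus transcripts.

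Of 12 genes listed with SRF as partners and cofactors, *Csrp1* alone passed in *Notch3*-/- mice. It encodes a LIM domain protein of smooth muscle and was lower (log2 fold change −0.41, SE 0.0810, adjusted p = 0.0240), and 0 of the 12 passed with the SMC marker covariate. The median over the 12 genes was 0.006, and the myocardin-related factors *Mrtfa* and *Mrtfb* were at 0.09 and 0.11. Among the 12, 0 passed in Tg*Notch3*R169C mice with edgeR, DESeq2, and limma voom. There 1 was higher and 2 lower at an unadjusted p below 0.05, against 7.27% of all genes. The smallest p-values were those of *Csrp1* (−0.18, adjusted p = 0.637), *Mrtfb* (0.17, adjusted p = 0.655), and *Fhl2* (−0.14, adjusted p = 0.655). Between the controls, the LIM domain genes *Csrp1* (−0.46), *Csrp2* (−0.42), *Pdlim7* (−0.37), and *Fhl1* (−0.21) were lower in the older mice. *Hopx*, whose product restrains SRF, was higher (0.50, SE 0.127, adjusted p = 0.0241). Without the libraries rich in choroid plexus transcripts, 3 genes of this list were called lower and 0 higher.

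A further list held 9 genes set beside MEF2, among them class IIa histone deacetylases. It also held *Mef2b*, itself a MEF2 gene, and *Hspb7*, so not every gene of it is a regulator of MEF2. Of these 9 genes, 0 passed in either mutant with edgeR, DESeq2, and limma voom. At an unadjusted p below 0.05, 1 was higher in *Notch3*-/- mice, *Hdac7* (0.08, adjusted p = 0.571), and 1 lower in Tg*Notch3*R169C mice, *Hspb7* (−0.42, SE 0.134, adjusted p = 0.531). Of all genes, 7.69% and 7.27% met that level in these comparisons. Between the controls, *Hspb7*, which encodes a small heat shock protein, and the kinase gene *Mapk14* were lower in the older mice (−0.55 and −0.10). Without the libraries rich in choroid plexus transcripts, 0 of the 9 passed.

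A last list held 33 genes for other transcription factors of mural cells. Not every gene of it is particular to these cells. Of the 33, 28 were tested in *Notch3*-/- mice and 29 in Tg*Notch3*R169C mice, and 0 passed in either with edgeR, DESeq2, and limma voom. At an unadjusted p below 0.05, none was found in *Notch3*-/- mice, where the smallest p-values were those of *Nr1d1* (0.27), *Foxs1* (−0.33), and *Foxf1* (0.15). At that level 1 was higher and 2 lower in Tg*Notch3*R169C mice, namely the forkhead gene *Foxs1* (0.56, SE 0.163, adjusted p = 0.450), *Nr2f2* (−0.18, adjusted p = 0.450), and *Foxo4* (−0.15, adjusted p = 0.510). Between the controls, the homeobox gene *Meis1* was higher (0.56, adjusted p = 0.0108) and *Klf6* lower (−0.30, adjusted p = 0.0444) in the older mice. In the fit without the libraries rich in choroid plexus transcripts, 0 genes of this list passed.

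How the regulators varied among mice of 1 group was examined over all 32 libraries after the mean of each group was removed. The mean log2 level of each marker list was compared with each gene, 40 relations in all, by permutation of libraries within groups. *Mef2c* followed the neuron markers, with Pearson's *r* = 0.77 (permutation adjusted p = 0.00180) and Spearman's rho = 0.68 (permutation adjusted p = 0.00320). Without the libraries farthest from the median, *Notch3*+/+ replicate 3 and WT replicate 3, *r* was 0.60. Within the groups it was 0.93 in *Notch3*+/+, 0.54 in *Notch3*-/-, 0.60 in WT, and 0.75 in Tg*Notch3*R169C mice. The summed level of the 8 neuron markers was 1768 CPM in *Notch3*+/+ replicate 3, where *Mef2c* was highest, and 258 to 537 CPM in the other libraries of that group.

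**Figure D4:**
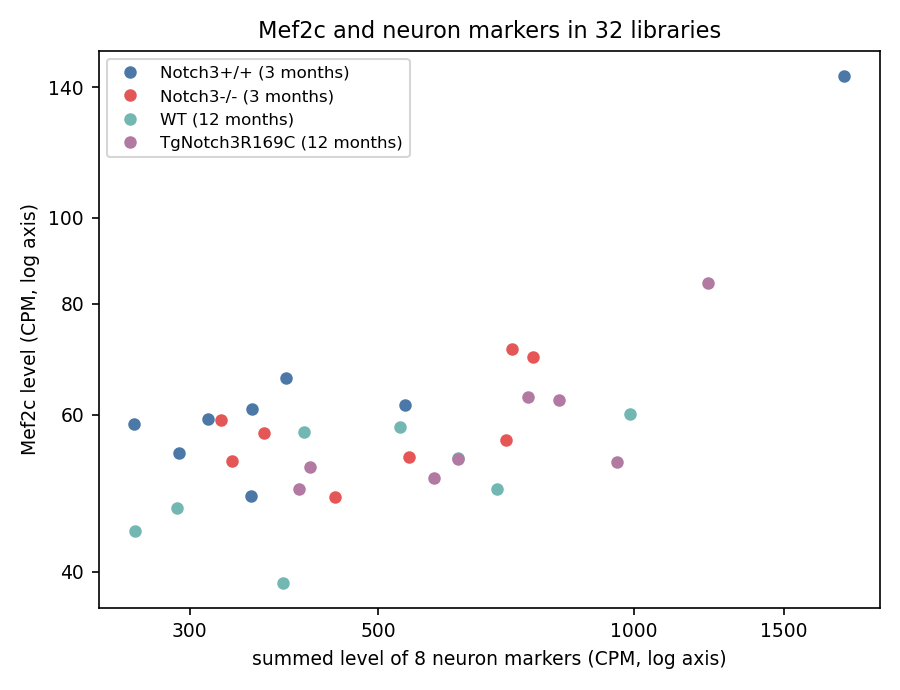
Level of *Mef2c* (y axis, CPM) against the summed level of 8 neuron markers (x axis, CPM) in each of the 32 libraries, both on log axes, with a color per group. The library at the upper right is *Notch3*+/+ replicate 3 (144.2 CPM of *Mef2c* and 1768 CPM of neuron markers), and the next highest is Tg*Notch3*R169C replicate 5 (84.4 and 1223 CPM).

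*Foxf2* and *Gata6* followed the endothelial markers. For *Foxf2*, *r* was 0.68 (permutation adjusted p = 0.00180) and rho 0.59 (permutation adjusted p = 0.0152), and *r* was 0.64 without Tg*Notch3*R169C replicates 3 and 5. For *Gata6*, *r* was 0.53 (permutation adjusted p = 0.0109) and rho 0.45 (permutation adjusted p = 0.117), and *r* was 0.46 without the same libraries. The relation of *Foxf2* was positive in each group, from 0.32 in *Notch3*-/- to 0.89 in *Notch3*+/+ mice, and that of *Gata6* lay between 0.46 and 0.93.

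None of the 10 regulators passed for the SMC markers, for which the highest *r* were 0.45 for *Gata6* (permutation adjusted p = 0.0585), 0.42 for *Myocd*, and 0.41 for *Mef2a*, and the value of *Srf* was 0.05. That of *Tbx2* was 0.36 (permutation adjusted p = 0.198). Within the groups it was 0.74 in *Notch3*+/+, −0.46 in *Notch3*-/-, 0.55 in WT, and 0.21 in Tg*Notch3*R169C mice. The fit of *Tbx2* with the SMC marker covariate took 1 slope for both groups. None passed for the fibroblast markers, where *Foxf2* was closest (*r* = 0.50, permutation adjusted p = 0.0509). *Tbx18* came next (*r* = 0.46, permutation adjusted p = 0.0968), and its *r* with the SMC markers was 0.37. The relation to the immediate early genes was added after the values had been seen. *Srf* had an *r* of 0.51 and *Klf4* one of 0.46 with their mean, both at a permutation adjusted p of 0.0504 over 10 relations. Spearman's rho was 0.44 and 0.47, and without *Notch3*+/+ replicate 5 and Tg*Notch3*R169C replicate 1 *r* was 0.42 and 0.35. Within the groups *r* of *Srf* was 0.75 in *Notch3*+/+, 0.63 in *Notch3*-/-, −0.48 in WT, and 0.64 in Tg*Notch3*R169C mice. That of *Klf4* was 0.003, 0.82, 0.77, and 0.48 in the same order.

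**Figure D5:**
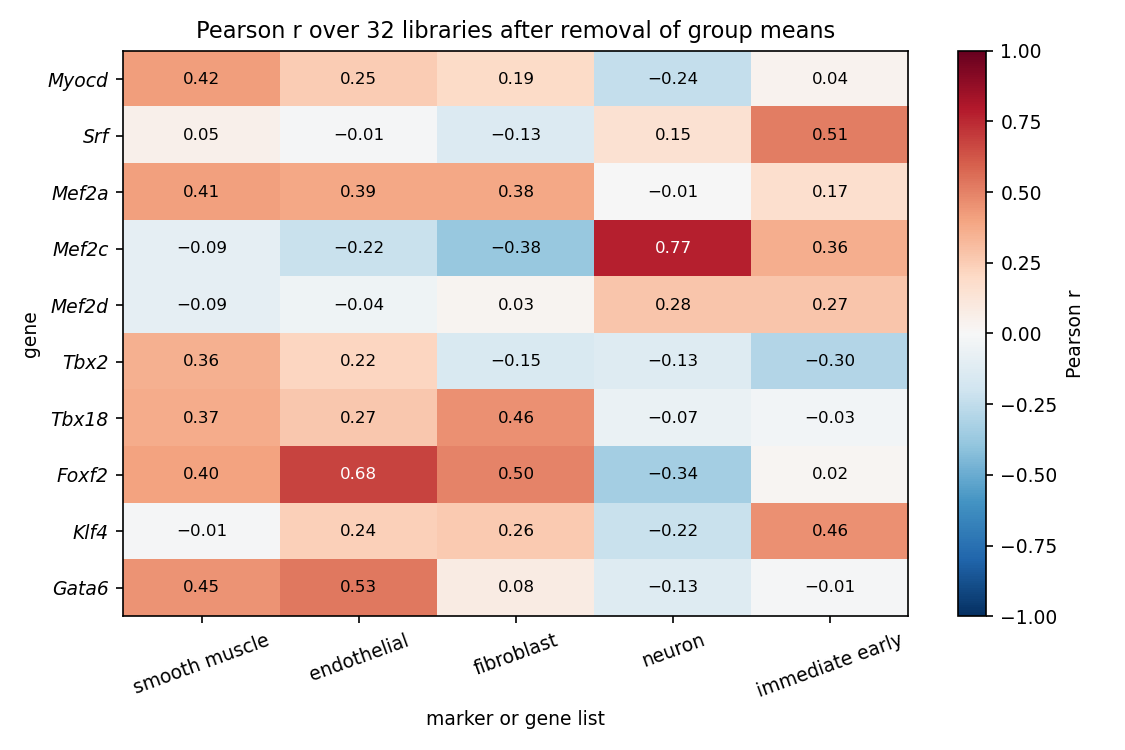
Pearson's *r* of each gene (rows) with the mean log2 level of 4 marker lists and of the immediate early genes (columns) over 32 libraries, after removal of the group means. The strongest cells are *Mef2c* with neuron markers (0.77) and *Foxf2* with endothelial markers (0.68), and *Srf* is near 0 with SMC markers (0.05).

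Among themselves, the regulators varied in several patterns over the 32 libraries, given here as descriptions. The highest *r* were those of *Myocd* with *Klf4* (0.56) and of *Mef2a* with *Foxf2* (0.53), and the lowest that of *Tbx2* with *Klf4* (−0.54). *Myocd* and *Srf*, which act as a complex, had an *r* of −0.17, and *Tbx2* and *Tbx18* one of 0.36. Of 15658 genes searched, those most like *Tbx18* were *Slc22a6* (*r* = 0.93), *Alcam* (0.92), and *Sphk1* (0.90), and those most like *Klf4* were *Arid5a* (0.92), *Srsf7* (0.90), and *Prkx* (0.89). *Srf* was most like *Ccn1* (0.84), which is itself in the list of immediate early genes, then *Edc3* (0.64) and *Rps6* (0.64). *Foxf2* was most like *Ccm2l* (0.77), *Cdh5* (0.76), and *Cxcl12* (0.76), and *Gata6* was most like *Mmrn2* (0.83) and *Pecam1* (0.80). *Cdh5* and *Pecam1* are themselves in the list of endothelial markers used above, so these values are not separate from that relation. *Mef2c* was most like *Cacnb3* (0.85), *Tmem121b* (0.85), and *Pip5k1c* (0.82), *Mef2d* most like *Rusc2* (0.87), *Pex26* (0.82), and *Gramd1a* (0.82), and *Mef2a* most like *Zfp326* (0.83), *Tmpo* (0.81), and *Ttc14* (0.79). *Tbx2* was most like *Sh3gl3* (0.83), *Spp2* (0.79), and *Fan1* (0.79), and *Myocd* most like *Mob2* (0.80), *Rasgrp2* (0.77), and *Atp10a* (0.77). All these values share the same libraries, scaling, and depth.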

How the data were processed

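Poly(A) RNA from the brain arteries of each of 32 mice was made into stranded libraries and sequenced. The authors deposited raw counts of reads per gene (Ensembl identifiers, not normalized). The submitters' processing notes name bcl2fastq 2.20.0.422, cutadapt 1.10, Bowtie2 2.2.8, STAR 2.5.3a, HTSeq 0.6.1p1, and the build mm39, without their roles; the strand setting of the counting is not given in the sources used here. Symbols were matched for 52081 of 55357 genes, and 16744 genes had no counts. Exon lengths come from a GENCODE annotation of GRCm38, so no gene coordinates in mm39 are printed. Exons of *Mef2a*, *Mef2d*, *Tbx18*, *Foxf2*, and *Gata6* overlap a gene of the opposite strand.

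Depth was 20289487 to 54481934 counts per library. No libraries agreed within counting noise. After filterByExpr and TMM scaling, edgeR 4.0.16 (R 4.3.3) gave quasi-likelihood tests, fitting the 16 libraries of 2 groups at a time and all 32 for the difference between the mutants. The Benjamini-Hochberg threshold was 0.05 over all genes tested; all 10 members passed the filter in every fit. SEs were derived from the F statistic. Levels are CPM on 1 TMM scale of all 32 libraries. The script was tested on simulated data. Alternatives were RLE factors, other filters, DESeq2 1.42.0, limma voom 3.58.1, marker covariates, a replicate block, 1 fit of all groups, and leaving out libraries. Correlations used log2 CPM and 100000 permutations (numpy 2.4.6). Each library is labelled as a separate sample of 1 group, taken here as 1 mouse, so p-values measure the spread between these samples.

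The members and lists were chosen with earlier results of these data known. Named were all 10 members, *Notch3* as the check of the labels, of each list the genes called (of long lists, examples) or otherwise those with the 3 smallest p-values, and the 3 genes most like each member, of which 1 is not reported here; *Des*, *Vcl*, *Mrtfa*, and *Mrtfb* were named after their values were seen.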

Additional observations from a re-analysis of the deposited data

Results flagged for a closer look

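Of 40 groups of 8 values, 10 genes in 4 groups, 2 held a library whose gap to the next exceeded the 95% limit of Dixon's test. Chance alone gives about 2 such groups in 40. Both concern *Mef2c*. In *Notch3*+/+ replicate 3, *Mef2c* was at 144.2 CPM and the next library of the group at 66.0 CPM, a gap of 0.818 of the range of the group. In Tg*Notch3*R169C replicate 5 it was at 84.4 CPM and the next library at 62.9 CPM, a gap of 0.617 of the range. The same libraries had the highest summed level of neuron markers in their groups, 1768 and 1223 CPM. The relation of *Mef2c* to these markers over all libraries is given above, and the cause of the high levels in these 2 libraries was not tested.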

How the results depend on the processing

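No member was called in Tg*Notch3*R169C mice, or for the difference between the mutants, under any alternative. *Tbx2* in *Notch3*-/- mice passed in 10 of 12 alternatives and all 16 fits without 1 library, *Myocd* between the controls in 11 of 12 and all 16, and *Tbx18* in 9 of 12 and all 16. With the smooth muscle marker covariate, the count of members called went to 0 in *Notch3*-/- mice and to 0 between the controls. With the choroid plexus covariate, or without the libraries rich in choroid plexus transcripts, both added after seeing the data, the count between the controls was 1 (*Myocd*). The cause was not tested. The numbers of all genes called also moved: DESeq2 called 260, 74, 2345, and 152 genes (*Notch3*-/- mice, Tg*Notch3*R169C mice, controls, difference), against 115, 20, 1398, and 65 with edgeR; the smooth muscle covariate left 16, 23, 0, and 68, and the fits without libraries rich in choroid plexus transcripts 98, 2, 402, and 39. In Tg*Notch3*R169C mice the neuron covariate left 7 and the immediate early gene covariate 5; between the controls the immediate early gene covariate left 664 and the choroid plexus covariate 276, and for the difference the immediate early gene covariate left 42. With all 4 groups in 1 fit, 174 genes were called in *Notch3*-/- mice. Leaving out 1 library gave 78 to 141, 11 to 26, 895 to 1621, and 53 to 94 genes in the same order.

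Same-numbered libraries of *Notch3*-/- and *Notch3*+/+ mice correlated at −0.12 to 0.32, and those of Tg*Notch3*R169C and WT mice at −0.22 to 0.42, and most libraries did not correlate best with their own number, so the numbers were not taken as pairs. With the replicate block, the count in *Notch3*-/- mice was 0 (*Tbx2* at −0.73, adjusted p = 0.0552), *Mef2d* was at −0.00039, and 97, 6, 715, and 81 genes were called in all in the order above.

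Sign changes were limited to values that did not pass. In *Notch3*-/- mice, *Mef2d* was at −0.00086 with limma voom, *Myocd* at 0.12 and *Mef2a* at 0.045 with the smooth muscle covariate, *Mef2c* at 0.015 with the immediate early gene covariate, and *Mef2a* at 0.00084 without libraries rich in choroid plexus transcripts; leaving out 1 library gave −0.035 to 0.0021 for *Mef2a*, −0.29 to 0.0085 for *Mef2c*, and −0.015 to 0.032 for *Mef2d*. In Tg*Notch3*R169C mice, *Tbx18* was at 0.0044 with RLE factors, 0.00031 without a filter, 0.0038 with 10 counts in every library, 0.0043 with DESeq2, 0.0012 with limma voom, 0.12 with the smooth muscle covariate, and 0.028 with the neuron covariate, which put *Mef2d* at −0.013; *Foxf2* was at −0.022 with the choroid plexus and −0.010 with the immediate early gene covariate; without libraries rich in choroid plexus transcripts *Mef2c*, *Mef2d*, and *Foxf2* were at −0.037, −0.0024, and −0.026; leaving out 1 library gave −0.056 to 0.044 for *Tbx18*. Between the controls, *Tbx2* was at −0.00030 without a filter, −0.0048 with limma voom, and −0.0060 with the immediate early gene covariate, and *Mef2d* at 0.033 with the choroid plexus covariate and 0.021 without libraries rich in it; leaving out 1 library gave −0.060 to 0.10 for *Tbx2* and −0.036 to 0.0016 for *Mef2d*. For the difference between the mutants, *Srf* was at 0.00020 with 10 counts in every library, *Foxf2* at 0.010 with limma voom and 0.013 with the neuron covariate, *Mef2d* and *Klf4* at −0.0064 and −0.13 with the immediate early gene covariate, and *Mef2d* and *Gata6* at −0.024 and 0.028 without libraries rich in choroid plexus transcripts; leaving out 1 library gave −0.042 to 0.036 for *Srf* and −0.034 to 0.040 for *Foxf2*. With RLE factors *r* was 0.019 for *Klf4* with smooth muscle, 0.00589 for *Mef2d* with endothelial, 0.038 for *Mef2a* with neuron markers, and 0.0027 for *Gata6* with the immediate early genes. Intervals and depth limit what could be seen for *Myocd* and *Gata6*, whose libraries held as few as 74 and 154 counts.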
